A study of Rattus norvegicus with 4 samples.

Results

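The genes described here are Tnf and 4 members of the interleukin-1 family, Il1a, Il1b, Il1rn and Il18. They were chosen by name because they encode the early inflammatory cytokines of macrophages and an inhibitor of interleukin-1 alpha and interleukin-1 beta. They are 5 of the 16579 genes that the arrays measured, and they were read by 6 probes on 15 spots of each array. The cells were NR8383, a macrophage line established by lavage of a normal rat lung, after 20 passages. All 4 samples belonged to 1 group, cells seeded for 48 h and given COOH-functionalized carbon nanotubes (NRCWE042) at 6.8 cm2/cm2 for 4 h, with 4 biological replicates per the series' design. The design also names cells incubated without nanotubes; these were not analysed here, so no value below is a response to the nanotubes, and no test between conditions was made. The line stands for alveolar macrophages as 1 established culture grown partly adherent and partly floating, without the other cells of a lung.

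Tumour necrosis factor is made as a membrane-bound trimer that a protease cuts loose. It acts on a pair of receptors, of which that encoded by Tnfrsf1a is broadly expressed. Interleukin-1 alpha and interleukin-1 beta share 1 receptor; the beta form and interleukin-18 are made as inactive precursors that caspase-1 cuts in the inflammasome, while the alpha precursor is active already. Il1rn encodes the interleukin-1 receptor antagonist, which occupies that receptor without starting a signal. Receptors of both cytokine families lead to NF-kB, which in turn raises transcription of Tnf, Il1a and Il1b and of its own inhibitors. In alveolar macrophages, particles and microbial products are known inducers of these cytokines, whereas Il18 precursor is commonly present without a stimulus.

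The promoter sequences are shown because the proximal promoter is where control of transcription is usually sought. On the percentile scale, Tnf and Il1rn had the most alike profiles of any pair of the 5 genes, while Il1b varied less. Whether promoter sequence has a part in this was not tested. All 5 genes matched the RefSeq promoter table (assembly GRCr8). The 100 bases directly before each start are given 5′ to 3′ on the strand of the gene, with any TATAAA match, or its reverse complement TTTATA, in capitals.
Tnf, chr20:3626585-3626684, plus strand: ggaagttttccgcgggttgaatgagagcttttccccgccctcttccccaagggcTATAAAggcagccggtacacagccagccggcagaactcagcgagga
Il1a, chr3:136990018-136990117, minus strand: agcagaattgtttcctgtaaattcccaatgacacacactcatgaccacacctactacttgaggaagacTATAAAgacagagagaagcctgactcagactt
Il1b, chr3:137036582-137036681, minus strand: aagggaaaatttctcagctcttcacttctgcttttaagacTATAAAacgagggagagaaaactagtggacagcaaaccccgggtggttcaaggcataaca
Il1rn, chr3:27520222-27520321, plus strand: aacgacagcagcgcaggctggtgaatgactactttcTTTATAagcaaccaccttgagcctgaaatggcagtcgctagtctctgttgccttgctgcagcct
Il18, chr8:59801972-59802071, plus strand: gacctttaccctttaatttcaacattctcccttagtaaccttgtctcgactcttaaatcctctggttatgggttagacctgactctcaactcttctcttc

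The 3 cytokine genes Tnf, Il1a and Il1b carried TATAAA on their own strand, a match that 8.06% of 33469 promoters held in the 250 bases before the start. The first base of the match lay 46 bases before the start in Tnf, 32 in Il1a and 60 in Il1b. Il1rn held the letters on the opposite strand only, and the Il18 window held neither; counting both strands, 4 of the 5 genes and 12.9% of all promoters had a match. The AP-1 motif TGANTCA occurred in Il1a only, from 12 to 6 bases before the start, as TGACTCA, and in 6.34% of promoters. GAGGAAG, the core of sites for the myeloid factor PU.1, and CCAAT each occurred in Tnf and Il1a, and in 10.2% and 34% of promoters. No match to the NF-kB consensus (6.33% of promoters) or to the cyclic AMP response element TGACGTCA (1.59%) lay in the 250 bases of any of the 5 genes. All motifs were searched on both strands, and the letters of none contain those of another. A match describes these letters alone and identifies no bound site. A missing match does not show that a gene lacks a site. Sites that depart from these letters, or lie farther before the start, were not searched.

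All 5 genes were detected in the exposed cells. A gene was called detected when the scanner software marked at least 1 of its probes as well above background on each of the 4 arrays (on more than 50% of the spots of that probe), and 44.4% of the measured genes met this. The processed signal, an intensity after background subtraction, ran from 815 (Il1a, replicate 4) to 30448 (Il1rn, replicate 3) over the brightest probes of the 5 genes. The lowest signal of any probe well above background was 20.8 to 24.6, and the median of 308 negative control spots was 4.58 to 5.67. The dimmest of the 6 probes, the second Tnf probe, still lay above both on every array. No spot was saturated. Probes differ in affinity, so these signals do not rank the genes by messenger RNA.

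**Figure D1:**
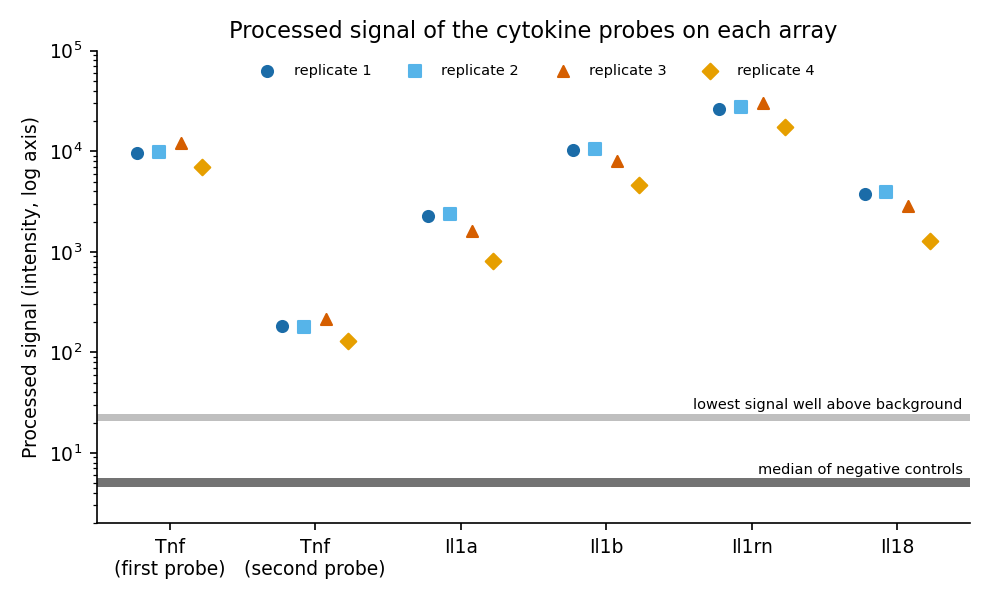
Processed signal (intensity, log axis) of the 6 probes on the 4 arrays; each symbol is 1 array, and the grey bands span the arrays' lowest well-above-background signal (20.8 to 24.6) and their negative control medians (4.58 to 5.67). Every probe lies above both bands on every array, and replicate 4 is the dimmest array for every probe.

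Replicate 4 was dim as a whole. Over 58717 sample spots, the processed signal had a 75th percentile of 734, 757, 595 and 307 on the arrays of replicates 1 to 4, and 38.8% of the sample probes were well above background on replicate 1 against 31.1% on replicate 4. The spike-in signal, from control transcripts added to each labelling, differed from replicate 1 by -0.08, 0.32 and -0.04 log2 units on replicates 2, 3 and 4. Below, a level is log2 of the processed signal minus the array's own 75th percentile, so it places a gene against the rest of its array, and it removes any change that all genes share. Whether fewer cells, less RNA or weaker labelling went with the dim array was not tested, and in RNA from whole cultures fewer expressing cells and less RNA per cell cannot be told apart. All arrays shared 1 slide and 1 scan. The detected genes had a median SD of 0.25 log2 units over the 4 arrays, with quartiles of 0.15 and 0.37. An area of low signal on replicate 3 held none of the 6 probes.

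Macrophage identity was checked with marker genes. Of 14 measured macrophage markers, 11 were detected (78.6%, beside 44.4% of all measured genes), among them Cd68, Lyz2, Pparg, Fcgr1a and Spi1. Marco, Adgre1 and Cd163 were well above background on 0 of 4 arrays. None of the 7 markers of lung epithelium, 5 of fibroblasts or 5 of mast cells and basophils was detected. Detected markers of other lineages were Cd3d, Nkg7 and Lck (3 of 9 for T and NK cells), Pax5 (1 of 3 for B cells), Camp (1 of 5 for neutrophils), and Pecam1, Cdh5 and Vwf (3 of 5 for endothelium). The part of such transcripts in the cytokine values was not tested.

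Tnf encodes tumour necrosis factor and had the largest SD of the 5 genes on the percentile scale, although with the spike-ins its SD was the smallest of the 5 (0.24, beside 0.29 for Il1rn). Its brighter probe gave signals of 9698, 9828, 12100 and 6993 on replicates 1 to 4, and levels of 3.72, 3.70, 4.35 and 4.51. Replicates 1 and 2 were low and nearly equal, and replicates 3 and 4 were both higher. The mean level was 4.07 ± 0.42 (SD, n = 4), and the highest level was 1.75-fold the lowest. This SD exceeded that of 82.1% of the other 7362 detected genes, and of 86.2% of the 625 genes whose mean level lay within 1 log2 unit of Tnf's. A second probe, for the same transcript record, read 181, 178, 212 and 129, far dimmer on every array. Measured from each probe's own mean, the values of both probes differed by at most 0.05 log2 units on any array, and the second had an SD of 0.41. The order of the arrays was therefore read by 2 separate probes of the gene.

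Il1b, the gene of secreted interleukin-1 beta, had the smallest SD of the 5 on the percentile scale. With the spike-ins its SD was 0.58, above those of Tnf and Il1rn; with normexp it was 0.14 beside 0.13 for Il18, and with each probe counted once in the percentile 0.11, above those of Il1a and Il18. Its signals were 10226, 10491, 8040 and 4623, and its levels were 3.80, 3.79, 3.76 and 3.91. Replicate 4 was highest and the other three lay within a few hundredths of each other. The mean level was 3.82 ± 0.07 (SD, n = 4), with the highest 1.11-fold the lowest. Only 5.77% of the other detected genes, and 10.1% of 710 genes of like level, had a smaller SD. Without replicate 4 the SD was 0.024.

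Il1a encodes interleukin-1 alpha, which is active without cleavage. It gave signals of 2292, 2384, 1593 and 815, and levels of 1.64, 1.66, 1.42 and 1.41. Replicates 1 and 2 lay above replicates 3 and 4, the reverse of Tnf, but the whole range was 1.19-fold. The mean was 1.53 ± 0.14 (SD, n = 4), and 21.8% of the other detected genes had a smaller SD.

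Il1rn encodes the receptor antagonist and was read by 1 probe on 10 spots. Its mean signals were 26063, 27321, 30448 and 17549, and its levels were 5.15, 5.17, 5.68 and 5.84. As for Tnf, replicates 3 and 4 lay above replicates 1 and 2, and the highest level was 1.61-fold the lowest. The mean was 5.46 ± 0.35 (SD, n = 4), an SD above that of 70.5% of the other detected genes. The repeated spots give the error within an array. After outlier-marked spots were left out, 8, 9, 7 and 10 spots remained on replicates 1 to 4, and the SD between spots was 0.04, 0.03, 0.06 and 0.07. The highest kept spot on replicate 2 read 5.23 and the lowest on replicate 3 read 5.56. No kept spot of the first pair of arrays thus reached any kept spot of the other. Leaving out marked spots can narrow the spread between spots, and the values of the marked spots are not given. With marked spots kept, Il1rn deviated from its mean by -0.29, -0.27, 0.19 and 0.37 on replicates 1 to 4. The spots of 1 array share its labelling and hybridization, so their spread leaves out the error between arrays.

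**Figure D2:**
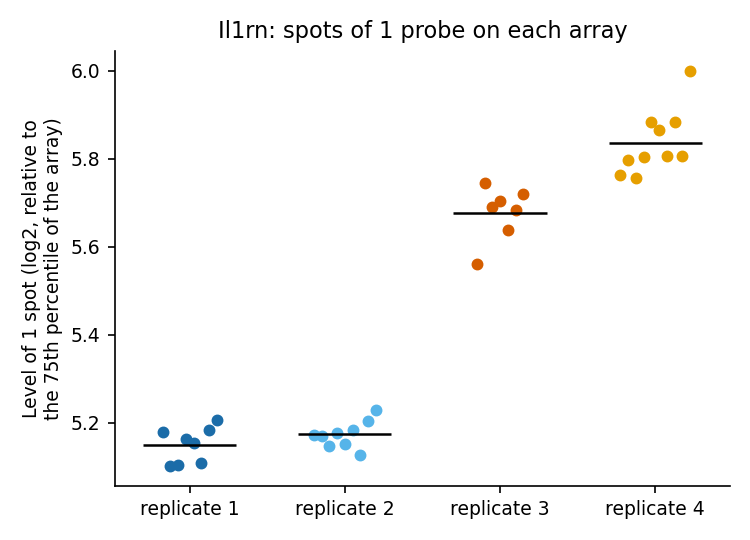
Levels of the single spots of the Il1rn probe on each array (log2 of the signal minus that of the array's 75th percentile); each point is 1 spot and each line the mean of the array. Spots marked as outliers are left out. The spots shown for replicates 1 and 2 lie at or below 5.23 and those for replicates 3 and 4 at or above 5.56.

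Il18 encodes the precursor of interleukin-18. Its signals were 3719, 3932, 2876 and 1270, and its levels were 2.34, 2.38, 2.27 and 2.05. Replicate 4 was lowest, and replicates 1 to 3 lay close together. The mean was 2.26 ± 0.15 (SD, n = 4), and 24.6% of the other detected genes had a smaller SD. Without replicate 4 the SD was 0.053.

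**Figure D3:**
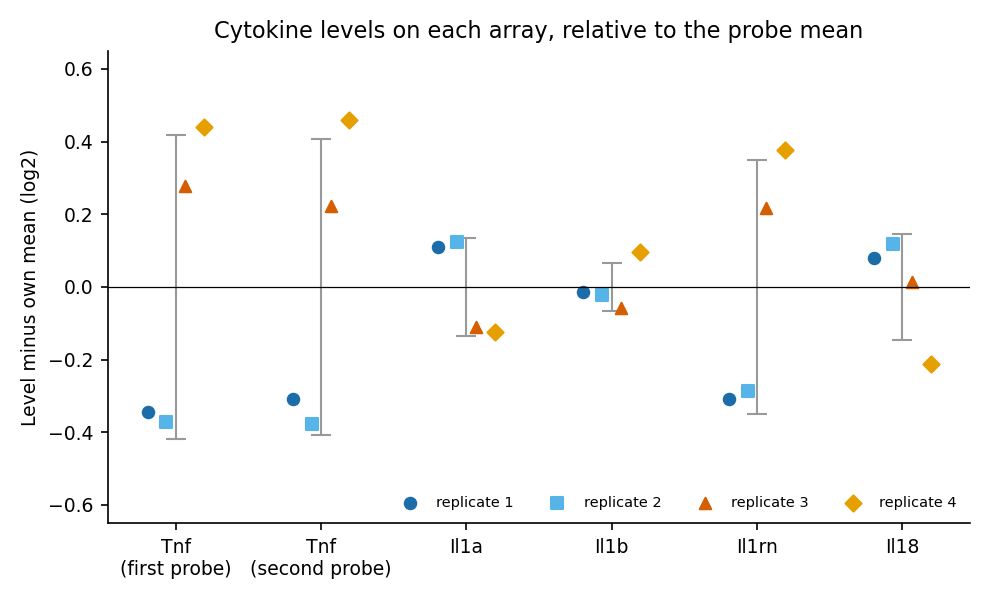
Level of each probe on each array minus the probe's own mean over the 4 arrays (log2 units); each symbol is 1 array and grey bars span the SD on either side of the mean (n = 4). Both Tnf probes and Il1rn lie below 0 on replicates 1 and 2 and above 0 on the others, while Il1b stays within 0.10 of its mean.

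Differences between genes of the same array do not depend on which single value scales the array (a percentile or the spike-ins), but can move with quantile normalization or normexp, a model-based background correction. The difference between the centred levels of Tnf and Il1b was -0.33, -0.35, 0.34 and 0.34 on replicates 1 to 4, so the Tnf to Il1b ratio was 1.62-fold larger on the highest array than on the lowest. The difference between Il1rn and Il1b ran the same way, at -0.29, -0.26, 0.28 and 0.28, a range of 1.49-fold. Both ratios were higher on replicates 3 and 4 than on either of the others. The ratio of the antagonist to Il1b thus varied, but no more than its ratio to a typical detected gene. The root mean square of the Il1rn to Il1b differences was 0.279, beside a median of 0.308 for Il1rn and all other detected genes. Of those genes, 45.8% were closer to Il1rn than Il1b was. Tnf and Il1rn, in contrast, differed by -0.04, -0.09, 0.06 and 0.06, a range of 0.15 log2 units or 1.11-fold, and Il1a and Il18 by 0.03, 0.01, -0.12 and 0.09, a range of 0.21 or 1.16-fold. The range of Tnf and Il1rn became 0.25 with quantile normalization and 0.24 with normexp, and that of Il1a and Il18 became 0.38 with normexp. The widest of the 10 pairs was Tnf and Il18, at 2.20-fold.

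The likeness of a pair was set against all detected genes, as the root mean square difference between centred profiles over the 4 arrays. Only 337 of 7362 genes (4.58%) had a profile closer to that of Tnf than Il1rn had, whereas 3460 (47.0%) were closer to it than Il1b. The first share was 12.3% with quantile normalization and 6.96% with outlier-marked spots kept, and without replicate 1, 3 or 4 it was 7.09%, 7.13% and 7.48%. For Il1a, 614 genes (8.34%) were closer than Il18, a share that became 21.1% with normexp, and 14.2%, 4.05% and 15.5% without replicate 2, 3 and 4. Il1b had no like profile among the 5: 2134 genes (29.0%) were closer to Il1a than Il1b was, and 4690 (63.7%) were closer to Il1b than Il1rn. The nearest genes to Tnf were Stat6, a transcription factor activated by interleukin-4, Mcrs1 and the MAP kinase phosphatase Dusp5, at distances of 0.007, 0.008 and 0.012 log2 units. Stat6 read -1.48, -1.51, -0.87 and -0.71, and Dusp5 read -1.11, -1.12, -0.50 and -0.30. The nearest to Il1rn were the small GTPase gene Rab34, the biotinidase gene Btd and the RNA helicase gene Dhx16. Those to Il1b were Mrpl55, a mitochondrial ribosomal protein gene, Slamf9 and Inpp1; those to Il1a were the translation factor Eif4b, Txndc15 and Spidr; and those to Il18 were Cyfip1, Angpt1 and the endosomal GTPase gene Rab5c. The genes share these 4 arrays, and the likeness describes them only.

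The order in which replicates 3 and 4 both lay above replicates 1 and 2 was common: 43.4% of the detected genes had it, and 36.1% had the reverse. On the percentile scale Tnf and Il1rn had the first order, Il1a and Il18 the reverse, and Il1b neither. These shares lie near the background, so the order itself is no result about the 5 genes. It also depends on the scale: when arrays were scaled to the spike-in controls, Tnf deviated from its mean by 0.08, 0.18, 0.08 and -0.35, and Il1rn by 0.12, 0.27, 0.03 and -0.41. On that scale the median detected gene deviated by 0.41, 0.53, -0.16 and -0.76. Relative to that median gene, Tnf stood at -0.33, -0.35, 0.24 and 0.41, and Il1rn at -0.29, -0.26, 0.18 and 0.35, as it did with the 75th percentile. Tnf and Il1rn were therefore high on replicates 3 and 4 against the other genes of those arrays, and lowest on replicate 4 against the spike-ins. With the spike-ins 91.0% of detected genes lay lower on replicates 3 and 4 than on replicates 1 and 2, and 0.34% lay higher. Orders given below with replicates 3 and 4 higher therefore do not, as a rule, carry over to the spike-in scale. Orders with replicates 3 and 4 lower are kept, since that scale lowers both arrays against replicates 1 and 2. The dimness of replicate 4 moved with the values of Tnf and Il1rn on both scales, and its part in them was not tested.

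**Figure D4:**
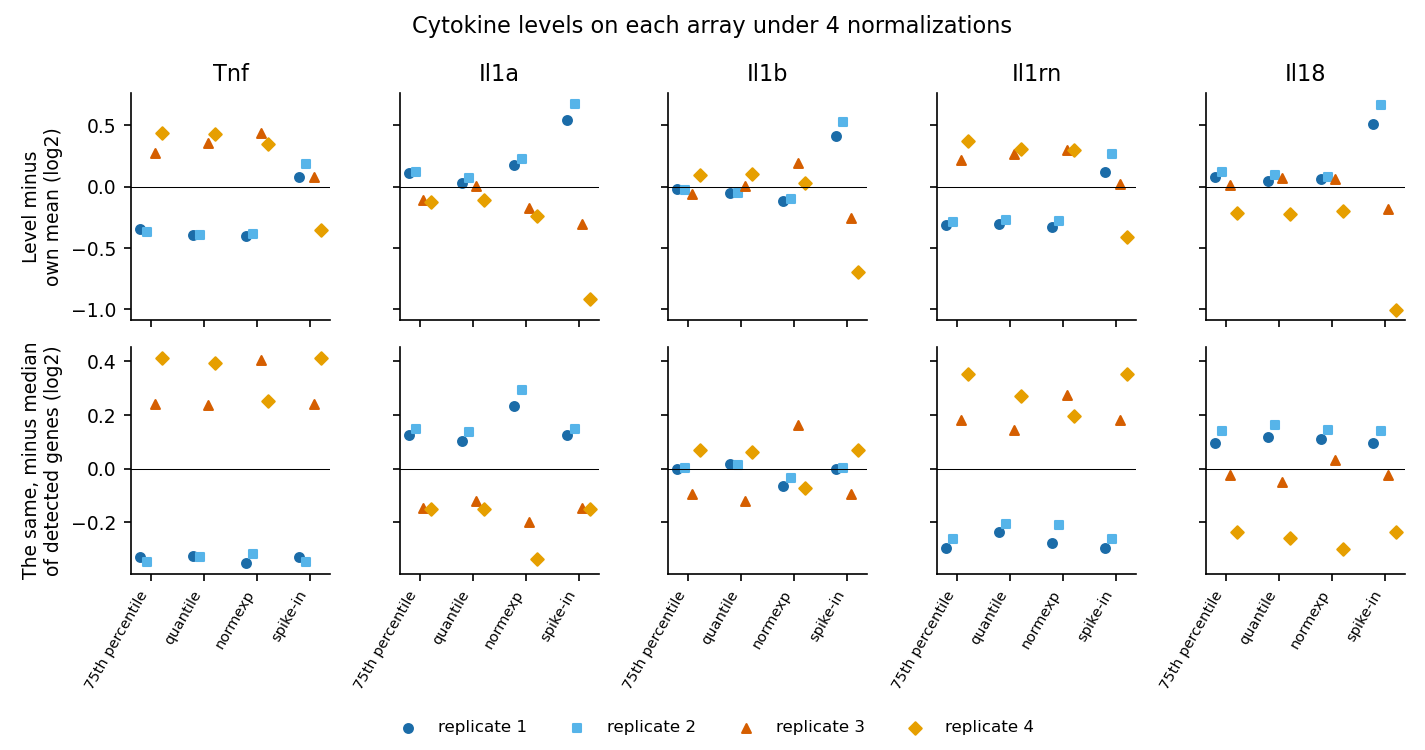
Levels of the 5 genes on each array minus their own mean (upper panels, log2 units) and the same minus the median of all detected genes (lower panels), under 4 normalizations; each symbol is 1 array. In the upper panels the spike-in scale turns Tnf and Il1rn, with replicate 4 lowest at -0.35 and -0.41, and in the lower panels both stay below 0 on replicates 1 and 2 and above 0 on replicates 3 and 4.

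Of 15 measured TNF superfamily ligands besides Tnf, 5 were detected (33.3%, beside 44.4% of all measured genes): Ltb (lymphotoxin beta), Tnfsf9 (4-1BB ligand), Tnfsf12 (TWEAK), Tnfsf13 (APRIL) and Tnfsf15. The rest, among them Faslg, Cd40lg and Tnfsf10, were not well above background on all arrays. Tnf lies in the RefSeq gene order between Lta and Ltb, its closest relatives. Lta was well above background on 0 arrays, although its signal was positive and significant on all 4, while Ltb read 1.29, 1.28, 1.66 and 1.87, higher on replicates 3 and 4 like Tnf but over a smaller range. Of 6 measured interleukin-1 family ligands besides the 4, only Il36b was detected, at -1.29, -1.18, -2.07 and -1.97, with replicates 3 and 4 below the others. Il1a and Il1b are direct neighbours on chromosome 3. Next to Il1rn, the antagonist gene Il36rn was well above background on 3 arrays and Il1f10 on 0. These neighbours were singled out after their values were seen.

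Of 22 measured TNF receptor superfamily genes, 7 were detected (31.8%), as were 2 of 10 receptors, decoys and binding proteins for interleukin-1 and interleukin-18 (20.0%), beside 44.4% of all measured genes. The difference between these shares was not tested. Both receptors for tumour necrosis factor itself were present. Tnfrsf1a, the broadly expressed one with a death domain, read 1.79, 1.73, 2.34 and 2.22, and Tnfrsf1b read -3.78, -3.74, -3.52 and -3.01. The 3 most variable of the detected receptors were Relt, the lymphotoxin beta receptor Ltbr and Tnfrsf21, with SDs of 0.44, 0.43 and 0.41. On replicate 3 the spot of Ltbr falls inside the low-signal area named above. All 7, which include Fas and Tnfrsf12a, lay higher on replicates 3 and 4 than on replicates 1 and 2, beside 43.4% of all detected genes. This count was made after the values were seen; with the spike-in scale 0 of 7 had that order and 6 the reverse, and with the mean of a gene's probes 6 had it.

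The signalling receptor for interleukin-1, Il1r1, and the decoy Il1r2 were well above background on 0 arrays, as were the interleukin-18 receptor chain Il18r1 and the inhibitory receptor Sigirr. Il1rap, the shared second chain of interleukin-1 receptors, was detected at -1.21, -1.26, -1.44 and -1.72 through 1 of its probes. Il18bp, whose secreted product binds interleukin-18, was detected at -1.10, -1.34, -1.21 and -1.10. No probe was matched to Il18rap. The cells thus gave signal for the ligands Il1a, Il1b and Il18 and for the antagonist, while the probes of the ligand-binding chains Il1r1 and Il18r1 stayed near background; a probe that reads little can also miss its transcript.

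Most genes for processing and release of these cytokines were detected, 16 of 18 measured (88.9%, beside 44.4% of all measured genes). Casp1, the protease that cuts the precursors of Il1b and Il18, read 0.01, 0.11, -0.63 and -0.96, and Casp4, an inflammatory caspase for intracellular lipopolysaccharide, read -0.26, -0.20, -0.84 and -0.98. Both were lower on replicates 3 and 4, as were 7 of the 16 detected genes of this list and 36.1% of all detected genes. The inflammasome adaptor Pycard read 0.56, 0.59, 0.53 and 0.39 and the sensor Nlrp3 read -1.90, -1.83, -1.54 and -1.62. Adam17, the protease that sheds tumour necrosis factor, read -1.17, -1.06, -1.46 and -1.61, whereas Rhbdf2, which carries that protease to the cell surface, read 0.35, 0.33, 0.81 and 1.16. Relative to replicates 1 and 2, Rhbdf2 was higher and Adam17 lower on replicates 3 and 4. The order of Rhbdf2 was shared by 6 of the 16 genes and by 43.4% of all detected genes. The Adam17 inhibitor gene Timp3 and the ATP-gated channel gene P2rx7 were each well above background on 0 arrays, and no probe was matched to Gsdmd, the pore through which mature interleukin-1 beta leaves the cell.

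Of 22 measured adaptors and kinases, 20 were detected (90.9%, beside 44.4% of all measured genes). Myd88, the adaptor of interleukin-1 and Toll-like receptors, read 3.25, 3.27, 3.64 and 3.81. Irak1 read -0.85, -1.12, -0.77 and -0.71, while Irak4, the kinase that acts before it, was well above background on 2 arrays and the ubiquitin ligase gene Traf6 on 3; the signal of both was positive and significant on all 4. On the tumour necrosis factor side, Traf2 read -1.11, -1.05, -0.67 and -0.78 and Ripk1 read -0.27, -0.37, -0.49 and -0.63. The adaptors were spread over both orders, 11 of the 20 with replicates 3 and 4 above and 7 below. Of all detected genes, 43.4% had the first order and 36.1% the second.

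Inhibitors of the receptor signal were detected in 13 of 15 cases (86.7%, beside 44.4% of all measured genes). Nfkbia, the NF-kB inhibitor that NF-kB itself induces, read 1.82, 1.82, 2.49 and 2.80, an SD of 0.49. Replicates 3 and 4 lay above replicates 1 and 2, an order shared by 5 of the 13 detected inhibitors and by 43.4% of detected genes. The reverse was held by 7 inhibitors and by 36.1% of detected genes. Irak3, a kinase-dead inhibitor of the interleukin-1 receptor complex, read from 0.79 on replicate 3 to 1.16 on replicate 1. Traf1 was well above background on 0 arrays and Socs1 on 1. Of 11 measured genes that control cytokine messenger RNA, 10 were detected (90.9%, beside the same 44.4%). Zc3h12a, whose ribonuclease destroys interleukin and other cytokine transcripts, read -1.48, -1.63, -0.91 and -0.55. Its order, with replicates 3 and 4 higher, was held by 2 of the 10 detected genes of this list, beside 43.4% of all detected genes. The reverse was held by 6 of the 10, beside 36.1%. Zfp36 (tristetraprolin), which promotes decay of Tnf transcripts, was well above background on 0 arrays, with a positive and significant signal on all 4. Over all 8 lists, 74 of 119 measured genes (62.2%) were detected, beside 44.4% of all measured genes; the 4 lists of ligands and receptors lay below that share and the other 4 lists above it.

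**Figure D5:**
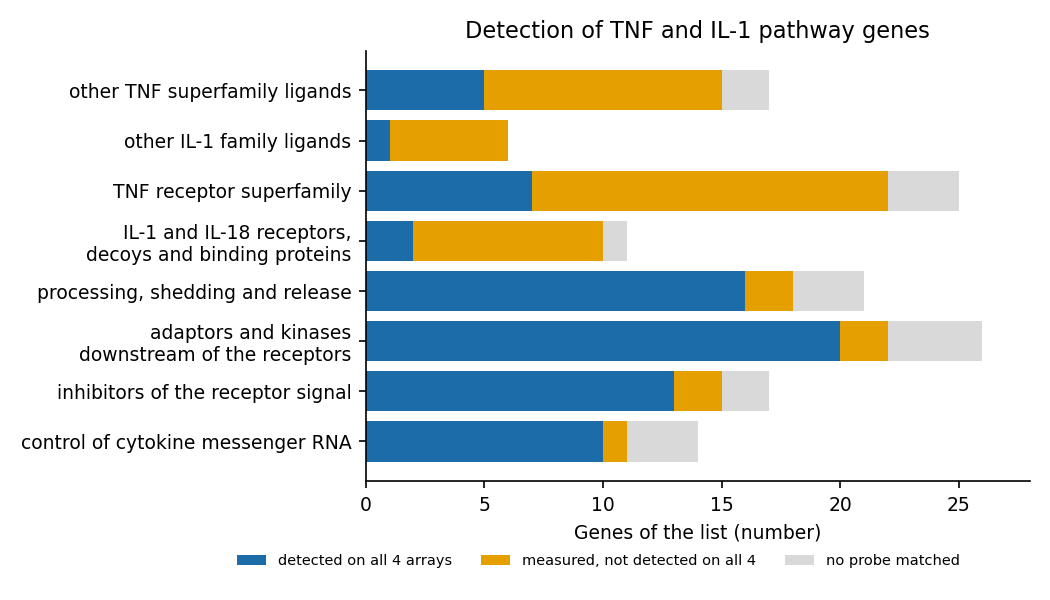
Number of genes in each of 8 lists of the TNF and interleukin-1 pathways that were detected on all 4 arrays (blue), measured but not detected (orange), or not matched to a probe (grey). Detected genes are a minority of the measured ligands and receptors (5 of 15, 1 of 6, 7 of 22 and 2 of 10) and a majority in the other 4 lists.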

How the data were processed

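Gene expression was measured in 4 samples on 1-colour arrays, using 100 ng of RNA (integrity number above 7.5) for each Cy3 labelling, per the labels' protocols. The authors deposited each spot's intensity, unlogged, as read by Agilent Feature Extraction 11.0.1.1, per the file headers and the submitters' processing notes; the processed signal is background-subtracted and spatially detrended within each array and not normalized between arrays. Replicates are biological per the series' design, and nothing states a shared culture or day.

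From these, log2 was taken, spots marked as outliers were left out, each array's 75th percentile over all sample spots was subtracted, and spots of a probe were averaged. Of 45598 sample probes, 21109 were named through their accession in the RefSeq table of GRCr8; the headers name an older build, so probe positions are not given. A gene took its brightest probe. Likeness was the root mean square difference of profiles centred on their own mean. The alternatives were other scalings, detection rules and probe rules, and leaving out each replicate. Normexp (offset 50) used spot and background medians. With 4 arrays in 1 group there is no test, and precision is limited by their number. No slide block could be fitted, since all arrays shared 1 slide. Steps were tested on simulated data. Python 3.11.15, numpy 2.4.6, pandas 2.3.3, R 4.3.3 and limma 3.58.1 were used.

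The 5 genes and the lists were chosen with earlier results of these data known. The named genes were the 5 genes, a roster of receptor and signalling genes, the detected members of each list where 4 or fewer (otherwise its undetected members where 6 or fewer, otherwise its 3 detected members with the largest SD), and the 3 nearest profiles of each of the 5 genes; other genes were named after their values were seen. Also chosen after values were seen were the order of replicates 3 and 4 against 1 and 2, the pairs followed across settings, the 6 motifs and the letters shown in capitals. The percentile was first taken without outlier-marked spots; it was changed to all sample spots, as the design and the headers have it, after both versions had been computed.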

Additional observations from a re-analysis of the deposited data

How the results depend on the processing

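All 5 genes were detected under each of 9 alternatives: other marks, array numbers, probe rules, spot rules and each replicate left out. No paired analysis was possible because all samples belong to 1 group. With spike-in scaling the SD became 0.24 for Tnf, then the smallest, 0.29 for Il1rn, 0.75 for Il1a, 0.58 for Il1b and 0.76 for Il18, so the order of the SDs turned. With normexp it became 0.24 for Il1a and 0.14 for Il1b, and with quantile normalization 0.078 for Il1a. With each probe counted once in the percentile, an alternative added after seeing the data, it became 0.083 for Il1a, 0.11 for Il1b and 0.095 for Il18. Leaving out 1 replicate gave SDs of 0.367 to 0.461 for Tnf, 0.298 to 0.390 for Il1rn, 0.132 to 0.140 for Il1a, 0.024 to 0.082 for Il1b and 0.053 to 0.180 for Il18. Tnf and Il1rn lay higher on replicates 3 and 4 under every scaling tried other than the spike-ins. Il18 no longer lay lower on both of these replicates, and Il1b lay higher on both, under several scalings. These were quantile normalization, normexp, each probe counted once, and the percentile without outlier-marked spots. Under the percentile without outlier-marked spots, used first, replicate 2 of Il18bp stood apart (-1.23, the others -0.98 to -0.94); under the percentile of all sample spots no named gene met that measure (Dixon's gap to the nearest array over the whole range, above its critical value). Replicate 4 met it in Il18 with normexp (0.943) and quantile normalization (0.85), in Il1b with each probe counted once (0.875) and in Tnfrsf1a with the spike-ins (0.832), as did Il1rap, Mrpl55, Slamf9 and Angpt1 under 1 setting each. In each setting 44 named genes were tested, and 1 in 20 would pass by chance with normal values. Between 1 and 4 genes passed in each setting named here, so a pass does not mark a replicate as faulty. Going from the percentile used first to that of all sample spots moved the share of genes higher on replicates 3 and 4 from 48.9% to 43.4% and gave Il1b another order of arrays; with normexp replicate 3 of Il1b was highest, in place of replicate 4. Gene counts changed by over 1.5 times in 4 lists: with any positive and significant signal 8 other TNF ligands, 3 other interleukin-1 ligands and 11 TNF receptors were detected; with 3 arrays needed, or without replicate 4, 2 interleukin-1 ligands; and with all probes required, 1 receptor of the interleukin-1 list, Il1rap being lost.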
